A study of Mus musculus with 7 samples.

Results

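A set of 10 genes that encode the kinase complex mTORC1, its partner complex mTORC2 and the proteins that switch mTORC1 on or off were followed in regulatory T cells (Treg cells) sorted from mouse melanomas by their level of FOXP3. The members were taken by gene symbol from the deposited table of 57180 genes. They are the kinase gene Mtor, the complex subunits Rptor and Rictor, the activator Rheb, and 6 negative regulators, Tsc1, Tsc2, Ddit4, Sesn1, Sesn3 and Castor1. All 10 were found once each, and all 10 passed the filter on low counts that left 15838 genes for testing. The tumours were B16-F0, a transplantable mouse melanoma line, carried by Foxp3-Cre-YFP mice, in which a yellow fluorescent reporter and Cre recombinase are made by cells that express Foxp3; the genotype field of every sample reads WT. Tumour-infiltrating Treg cells were sorted into FOXP3-low (4 libraries) and FOXP3-high (3 libraries) populations and their mRNA was sequenced in bulk. The labels give no age, no sort gates and no word on whether replicates are separate mice, so the p-values cover the spread between these libraries alone, which may be technical.

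mTOR is a protein kinase that couples growth signals and nutrients to protein synthesis, lipid synthesis and the restraint of autophagy. In mTORC1 it is bound by raptor, the product of Rptor, and is turned on at the lysosome by the small GTPase RHEB, while in mTORC2 it is bound by rictor and phosphorylates AKT. The TSC1-TSC2 complex inactivates RHEB, REDD1 (the product of Ddit4) acts through TSC, and sestrins and CASTOR1 hold back the amino acid branch that recruits mTORC1 to the lysosome. In Treg cells mTORC1 activity has been tied to suppressive function and to lipid metabolism, and strong mTOR signalling is also known to oppose the stability of the Treg state. These are regulations of protein activity, and the libraries measure only RNA.

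The promoters of the members were read for motifs of factors known to act on such genes. Windows of 300 bases, 250 before and 50 after each annotated start, came from RefSeq (GRCm38.p6), a different build from the deposited coordinates, and all 10 members had at least 1 (11 windows, since Sesn1 has 2). They were searched on both strands for the forkhead motif TGTTTAC (bound by FOXO factors), the E-box CACGTG and the ATF4 element TGATGNAA. The 3 printed here belong to both sestrin genes, which moved together, and to Ddit4, which moved the other way; capitals mark a motif match, and lower case the rest.
Sesn1 (first window, chr10:41810324-41810623, plus strand): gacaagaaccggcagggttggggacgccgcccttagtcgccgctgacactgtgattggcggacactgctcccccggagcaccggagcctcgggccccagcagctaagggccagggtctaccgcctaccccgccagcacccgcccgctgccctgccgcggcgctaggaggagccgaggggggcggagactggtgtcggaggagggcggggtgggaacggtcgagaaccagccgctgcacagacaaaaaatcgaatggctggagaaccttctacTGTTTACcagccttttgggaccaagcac
Sesn3 (chr9:14276051-14276350, plus strand): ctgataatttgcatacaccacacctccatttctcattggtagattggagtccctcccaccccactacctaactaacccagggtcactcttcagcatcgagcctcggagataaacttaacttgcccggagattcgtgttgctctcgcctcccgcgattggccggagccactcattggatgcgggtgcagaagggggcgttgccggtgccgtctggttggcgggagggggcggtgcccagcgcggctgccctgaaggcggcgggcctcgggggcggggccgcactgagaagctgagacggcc
Ddit4 (chr10:59951721-59952020, minus strand): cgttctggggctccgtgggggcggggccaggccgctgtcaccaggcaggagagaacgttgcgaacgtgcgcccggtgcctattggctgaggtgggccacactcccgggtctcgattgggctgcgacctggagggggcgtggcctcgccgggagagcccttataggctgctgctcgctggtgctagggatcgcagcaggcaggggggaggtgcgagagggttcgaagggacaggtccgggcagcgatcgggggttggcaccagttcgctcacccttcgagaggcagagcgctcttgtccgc
The first Sesn1 window held 1 forkhead match on the plus strand, 23 bases into the transcript, and the Rheb window held 1 E-box at -96. No other window of the members held a match. Of all 32851 windows, 3.65% held the forkhead motif, 7.15% the E-box and 3.97% the ATF4 element. A match describes letters and is not a binding site, and its absence says only that the letters are not in the window.

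Depth and composition of the libraries touch each result. Each FOXP3-low library totalled 12177761 to 14546999 counts, and each FOXP3-high library 9048771 to 11202260. Foxp3, the gene whose level names the groups, ranged over 310 to 397 CPM in the FOXP3-low libraries and 639 to 808 CPM in the FOXP3-high libraries, where CPM is the count scaled to 1000000 counts of a TMM-normalized library (TMM is a scaling that centres most genes on no change). T cells were borne out in both groups by 18 T cell identity genes, which do not tell Treg cells from other T cells. These genes summed to 3196 to 3674 CPM in FOXP3-low and 4583 to 5304 CPM in FOXP3-high, with 17 called higher in FOXP3-high. The 8 Treg markers, which include Foxp3, summed to 2725 to 3165 CPM in FOXP3-low and 3972 to 4880 CPM in FOXP3-high, with 5 called higher. The other 3 did not pass, and of these Il2ra had a mean of 535 CPM in FOXP3-low and a lower one of 476 CPM in FOXP3-high, with overlap. With libraries scaled to the summed T cell identity genes instead, 2 of the 8 Treg markers were called higher and 3 lower. Macrophage and monocyte markers were not absent: all 14 were lower in FOXP3-high, with sums of 2176 to 2704 CPM against 231 to 336 CPM, and of these only Ms4a7 was at 0 in any library. All 9 melanoma markers were higher in FOXP3-high (1401 to 2508 CPM against 3399 to 4672 CPM), and all 12 cell cycle genes lower (5513 to 5945 CPM against 1150 to 1346 CPM). The 7 endothelial markers, none called, were uneven within groups, with the libraries numbered 3 of both groups at 310 and 339 CPM against 73.1 to 197 CPM elsewhere, with Cldn5 and Tie1 at 0 in at least 1 library. The part these other cells and dividing cells play in the differences below was not tested, and in bulk RNA fewer cells of a type and less RNA per cell cannot be told apart.

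**Figure D1:**
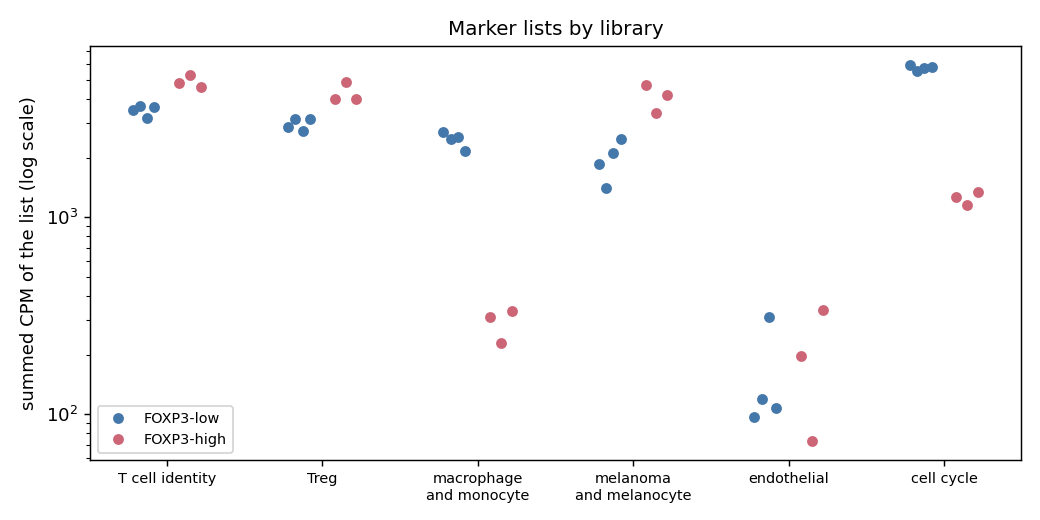
Summed CPM of 6 marker lists (log axis) in each of the 4 FOXP3-low (blue) and 3 FOXP3-high (red) libraries, 1 point per library. Macrophage and cell cycle sums are lower, and T cell, Treg and melanoma sums higher, in every FOXP3-high library than in any FOXP3-low library, while endothelial sums overlap. The Treg sum includes Foxp3, and 5 of the 8 Treg markers were called higher.

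With TMM, 6 of the 10 members were higher in FOXP3-high (Sesn1, Sesn3, Rictor, Tsc2, Tsc1 and Rptor), 1 was lower (Ddit4), and Mtor, Rheb and Castor1 did not pass an adjusted p of 0.05 (edgeR quasi-likelihood test with Benjamini-Hochberg adjustment over all tested genes). Over all tested genes 21.8% were called higher and 24.6% lower. The same 7 members showed no overlap between the libraries of the groups, 6 higher and 1 lower in FOXP3-high, where 50.7% of all tested genes also had none (23.9% higher and 26.8% lower). The median log2 fold change of the members, FOXP3-high minus FOXP3-low, was 0.37, beside 0.01 over all tested genes. These directions depend on what the libraries are scaled to. When they were scaled to the summed T cell identity genes in place of TMM, which moved the median of all genes to -0.47, only Sesn1 and Sesn3 were still called higher, Ddit4 was again lower, Mtor and Rheb became lower, and Rptor, Rictor, Tsc1, Tsc2 and Castor1 did not pass. Under that scaling 4.81% of all genes were called higher and 50.5% lower, and the median of the members was -0.12. Of the 18 T cell identity genes themselves, 4 were called higher and 4 lower, so the reference genes did not all keep the same level.

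**Figure D2:**
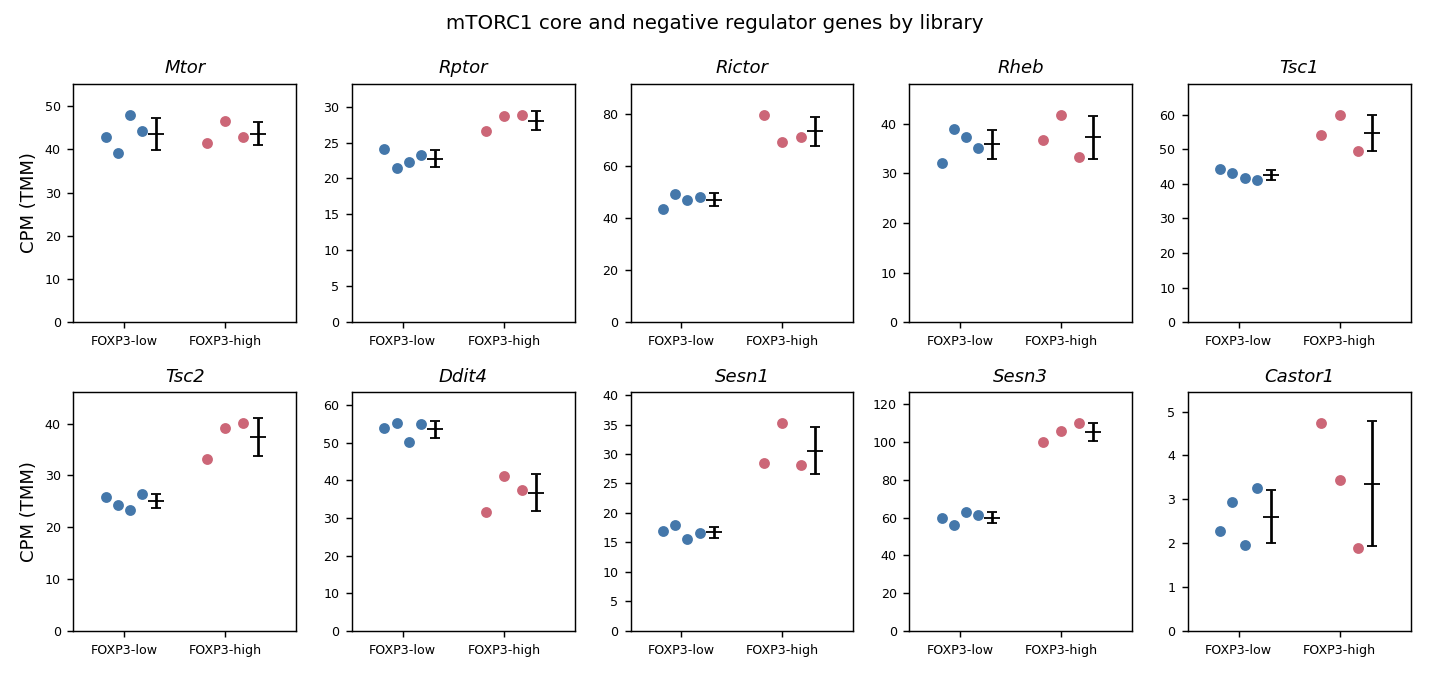
CPM of the 10 members in each library (points; blue FOXP3-low, n = 4; red FOXP3-high, n = 3) with mean and SD (black), each panel on its own axis from 0. The groups do not overlap for Rptor, Rictor, Tsc1, Tsc2, Ddit4, Sesn1 and Sesn3, and overlap for Mtor, Rheb and Castor1.

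Mtor, the kinase subunit of both complexes (ENSMUSG00000028991, chromosome 4, 148533068 to 148642140, plus strand, GRCm39), stood at 42.8, 39.2, 48.0 and 44.3 CPM in FOXP3-low replicates 1 to 4 and at 41.4, 46.5 and 42.9 CPM in FOXP3-high replicates 1 to 3. The FOXP3-high values lay inside the FOXP3-low range. The log2 fold change was 0.00 ± 0.0847 (SE), with a 95% interval from -0.19 to 0.19 and an edgeR adjusted p of 0.994. Relative to T cell identity genes the kinase gene was lower, at 10.7 to 15.02 counts per 1000 T cell identity counts across FOXP3-low libraries against 8.65 to 9.37 across FOXP3-high libraries (log2 fold change -0.49, edgeR adjusted p = 0.00543). That change was near the median of all tested genes under this scaling, -0.47.

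Of the subunits that define each complex, both were higher with TMM, and Rictor by more. Rptor (ENSMUSG00000025583, chromosome 11, 119493731 to 119790233, plus strand), which encodes the scaffold raptor that presents substrates to mTORC1, stood at 24.1, 21.4, 22.4 and 23.3 CPM in FOXP3-low and at 26.6, 28.7 and 28.9 CPM in FOXP3-high. All 3 FOXP3-high values lay above the 4 FOXP3-low values, by a narrow margin. The log2 fold change was 0.30 ± 0.0786, edgeR adjusted p = 0.011, but it turned to -0.18 (adjusted p = 0.164) with T cell identity scaling, and without both libraries numbered 3 it was 0.27 and not called (adjusted p = 0.0982). Rictor (ENSMUSG00000050310, chromosome 15, 6737860 to 6829882, plus strand), the defining subunit of mTORC2, stood at 43.6, 49.4, 47.2 and 48.2 CPM in FOXP3-low and at 79.9, 69.4 and 71.2 CPM in FOXP3-high. The groups were well apart, with FOXP3-high replicate 1 the highest, and the fold difference was 1.56 (log2 fold change 0.64 ± 0.0742, edgeR adjusted p = 8.85e-05). With T cell identity scaling Rictor was at 0.16 and not called (adjusted p = 0.205).

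Ratios of 2 members within a library do not depend on how libraries are scaled. For 5 such ratios, an exact two-sided permutation test over the 35 splits of 4 and 3 libraries was run, which cannot give a p below 0.0571. The ratio of Rptor to Rictor counts was 0.552, 0.434, 0.474 and 0.483 in FOXP3-low and 0.333, 0.415 and 0.406 in FOXP3-high. Every FOXP3-high library thus held fewer Rptor counts per Rictor count than any FOXP3-low library. The mean log2 ratio differed by -0.34 (exact permutation p = 0.0571, adjusted over the 5 ratios 0.0952).

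Rheb, the GTPase that binds and activates mTORC1 (ENSMUSG00000028945, chromosome 5, 25007821 to 25047622, minus strand), stood at 32.2, 39.0, 37.3 and 35.2 CPM in FOXP3-low and at 36.7, 41.9 and 33.3 CPM in FOXP3-high. The groups overlapped, and the log2 fold change was 0.05 ± 0.0991 with a 95% interval from -0.17 to 0.28 (edgeR adjusted p = 0.70). With T cell identity scaling it was lower (log2 fold change -0.44, adjusted p = 0.0044), beside a median of -0.47 over all tested genes.

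Both genes of the TSC complex, the brake on RHEB, were higher in FOXP3-high with TMM. Tsc1 (ENSMUSG00000026812, chromosome 2, 28531240 to 28581179, plus strand), which encodes the stabilizing subunit hamartin, stood at 44.2, 43.0, 41.8 and 41.0 CPM in FOXP3-low and at 54.3, 60.0 and 49.6 CPM in FOXP3-high. No FOXP3-high library fell into the narrow FOXP3-low range, and the log2 fold change was 0.36 ± 0.0777 (edgeR adjusted p = 0.00396), turning to -0.13 (adjusted p = 0.208) with T cell identity scaling. Tsc2 (ENSMUSG00000002496, chromosome 17, 24814790 to 24851549, minus strand), which encodes tuberin, the subunit that acts on RHEB, stood at 25.8, 24.3, 23.4 and 26.4 CPM in FOXP3-low and at 33.1, 39.1 and 40.0 CPM in FOXP3-high. The groups did not overlap, with a log2 fold change of 0.58 ± 0.0893 (edgeR adjusted p = 5.52e-04), but only 0.10 when scaled to T cell identity genes (adjusted p = 0.452). The end of Tsc2 overlaps Pkd1 on the opposite strand, whose own level rose from 26.3 ± 1.66 to 56.1 ± 2.48 CPM (mean ± SD, n = 4 and n = 3; edgeR), and without a stated strand setting the reads of the pair cannot be separated with certainty.

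The count ratio of the activator Rheb to Tsc2 was 1.24, 1.6, 1.59 and 1.33 in FOXP3-low and 1.11, 1.07 and 0.833 in FOXP3-high. The ratio was lower in every FOXP3-high library than in any FOXP3-low library, and the mean log2 ratio differed by -0.53 (exact permutation p = 0.0571, adjusted 0.0952). The ratio of Tsc1 to Tsc2 overlapped between groups, with 1.55 to 1.78 across FOXP3-low libraries and 1.24 to 1.64 across FOXP3-high libraries (mean log2 difference -0.22, exact permutation p = 0.114, adjusted 0.143), and without FOXP3-high replicate 3 the mean log2 difference was -0.10. Both ratios use Tsc2 counts, so the limit from the overlap with Pkd1 holds for them too.

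Ddit4, whose stress-induced protein REDD1 releases TSC to shut mTORC1 down under hypoxia, energy loss or glucocorticoids, was the member called lower. Ddit4 (ENSMUSG00000020108, chromosome 10, 59785491 to 59787656, minus strand) stood at 53.9, 55.1, 50.3 and 55.0 CPM in FOXP3-low and at 31.6, 41.2 and 37.4 CPM in FOXP3-high. The highest FOXP3-high library remained below the lowest FOXP3-low library. The log2 fold change was -0.55 ± 0.0941, a 1.46-fold lower level (edgeR adjusted p = 0.00109). Per 1000 T cell identity counts, Ddit4 was at 14.99 to 15.7 across FOXP3-low libraries and 6.58 to 8.16 across FOXP3-high libraries, and with that scaling the log2 fold change was -1.03 (adjusted p = 1.54e-05). The ratio of Ddit4 to Mtor counts was 1.26, 1.40, 1.05 and 1.24 in FOXP3-low and 0.762, 0.885 and 0.870 in FOXP3-high. Every FOXP3-high library thus held fewer Ddit4 counts per Mtor count than any FOXP3-low library. The mean log2 ratio differed by -0.56 (exact permutation p = 0.0571, adjusted 0.0952). These counts are not scaled to gene length, so the ratio does not rank the genes by level. Per kilobase of deposited gene length, Ddit4 was above Mtor in both groups (30.5 against 4.31 CPM in FOXP3-low, 20.9 against 4.32 CPM in FOXP3-high). Macrophage and cell cycle sums were lower in FOXP3-high as well, and their part in the Ddit4 difference was not tested.

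Sesn1 and Sesn3, which encode sestrins that bind and restrain the GATOR2 complex of the amino acid branch and are known FOXO-regulated genes, had the largest increases. Sesn1 (ENSMUSG00000038332, chromosome 10, 41685931 to 41784420, plus strand) stood at 16.9, 17.9, 15.6 and 16.6 CPM in FOXP3-low and at 28.5, 35.2 and 28.1 CPM in FOXP3-high. All FOXP3-high libraries were far above FOXP3-low, replicate 2 most of all, and the fold difference was 1.82 (log2 fold change 0.87 ± 0.102, edgeR adjusted p = 9.79e-05). Sesn3 (ENSMUSG00000032009, chromosome 9, 14186363 to 14244397, plus strand) stood at 59.6, 56.0, 62.8 and 61.1 CPM in FOXP3-low and at 99.9, 106 and 110 CPM in FOXP3-high. Its groups were also far apart and its libraries close to each other, with a fold difference of 1.76 (log2 fold change 0.81 ± 0.063, edgeR adjusted p = 6.80e-06). Both remained higher with T cell identity scaling, Sesn1 by a log2 fold change of 0.38 (adjusted p = 0.00548) and Sesn3 by 0.33 (adjusted p = 0.021).

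Per 1000 T cell identity counts, Sesn1 was at 4.84, 4.87, 4.89 and 4.58 in FOXP3-low and 5.94, 6.63 and 6.14 in FOXP3-high, with no overlap. Sesn3 was at 17.1, 15.3, 19.7 and 16.9 against 20.8, 19.98 and 24.0, also with no overlap. The count ratio of Sesn3 to Sesn1 ranged over 3.13 to 4.01 in the FOXP3-low libraries and 3.01 to 3.90 in the FOXP3-high libraries, and its mean log2 difference of -0.05 (exact permutation p = 0.686, adjusted 0.686) lay inside the spread of each group. Melanoma and T cell identity sums were higher in FOXP3-high together with both sestrin genes, and the part of melanoma RNA was not tested.

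The third sestrin gene, Sesn2, which is known as a target of stress factors such as ATF4 and belongs to the wider list described below, went the other way. It stood at 6.01, 5.37, 6.24 and 5.02 CPM in FOXP3-low and at 3.44, 2.89 and 3.21 CPM in FOXP3-high. The groups did not overlap (log2 fold change -0.83 ± 0.183, edgeR adjusted p = 0.00463), and scaled to T cell identity genes it was at -1.31 (adjusted p = 6.26e-04). Among the 3 sestrin genes, therefore, 2 were called higher and 1 lower under both scalings.

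Castor1, which encodes an arginine sensor that restrains GATOR2 (ENSMUSG00000020424, chromosome 11, 4168225 to 4172409, plus strand), was the member with the fewest counts, 20 to 55 per library. It stood at 2.28, 2.93, 1.96 and 3.26 CPM in FOXP3-low and at 4.73, 3.45 and 1.89 CPM in FOXP3-high. The FOXP3-high libraries held both the highest and the lowest value of all 7. The log2 fold change of 0.37 ± 0.332 had a 95% interval from -0.38 to 1.12 (edgeR adjusted p = 0.397), and no difference was detected. Without FOXP3-high replicate 1 the Castor1 log2 fold change was 0.0013, and without FOXP3-high replicate 3 it was 0.66 (adjusted p = 0.107).

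**Figure D3:**
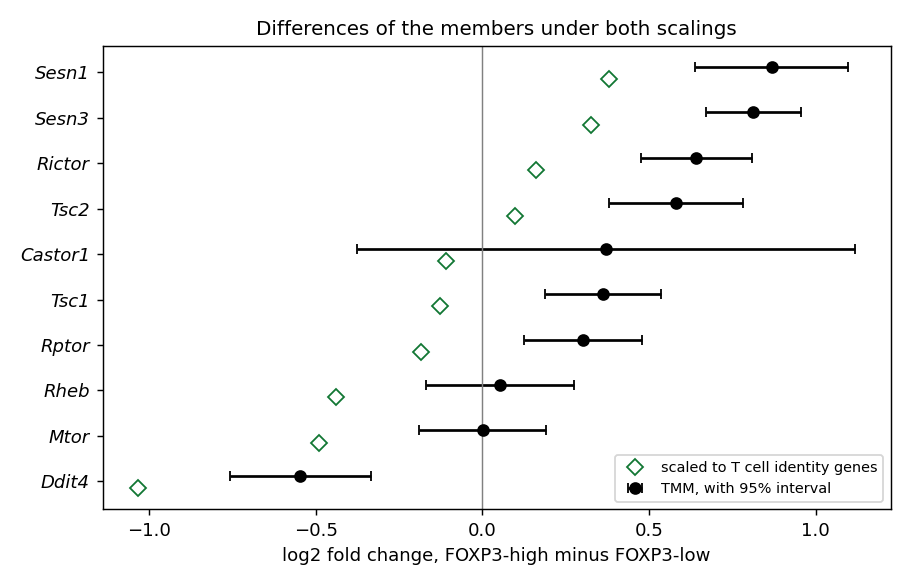
Log2 fold change (FOXP3-high minus FOXP3-low) of each member with TMM (black points, 95% interval) and with scaling to T cell identity genes (green diamonds, no interval drawn). Sesn1 and Sesn3 lie above 0 and Ddit4 below 0 under both scalings, whereas Tsc1, Rptor, Castor1, Rheb and Mtor lie above 0 with TMM (Mtor at 0.00) and below 0 with T cell scaling.

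Levels were compared between members per kilobase of deposited gene length. These lengths ran from 1574 bases for Castor1 and 1755 for Ddit4 to 16930 for Rictor. Whether they match the transcripts made in these cells was not tested, and the order rests on them. Ddit4 had by far the highest level in both groups, at 30.5 ± 1.28 CPM per kilobase in FOXP3-low (SD, n = 4) and 20.9 ± 2.76 in FOXP3-high (SD, n = 3). In FOXP3-low the order below it was Rheb (4.65 CPM per kilobase), Mtor (4.31), Sesn1 (4.21), Sesn3 (3.92) and Tsc1 (3.59), in which each neighbouring pair overlapped. Rictor (2.78) and Tsc2 (2.60) overlapped each other below them, as did Rptor (1.69) and Castor1 (1.66) at the bottom. In FOXP3-high, Sesn1 (7.68) and Sesn3 (6.89) came next and overlapped each other but no longer Rheb (4.83). Rheb, Tsc1 (4.62), Rictor (4.34), Mtor (4.32) and Tsc2 (3.89) then formed a run of overlapping neighbours, above Castor1 (2.13) and Rptor (2.08). The spread between libraries of one group was small for most members, with a coefficient of variation of 3.32% to 8.36% among FOXP3-low libraries and 4.6% to 13.2% among FOXP3-high libraries for the 9 members other than Castor1, whose values were 22.8% and 42.4%. FOXP3-high replicate 2 was the highest FOXP3-high library for 5 of the 10 members.

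**Figure D4:**
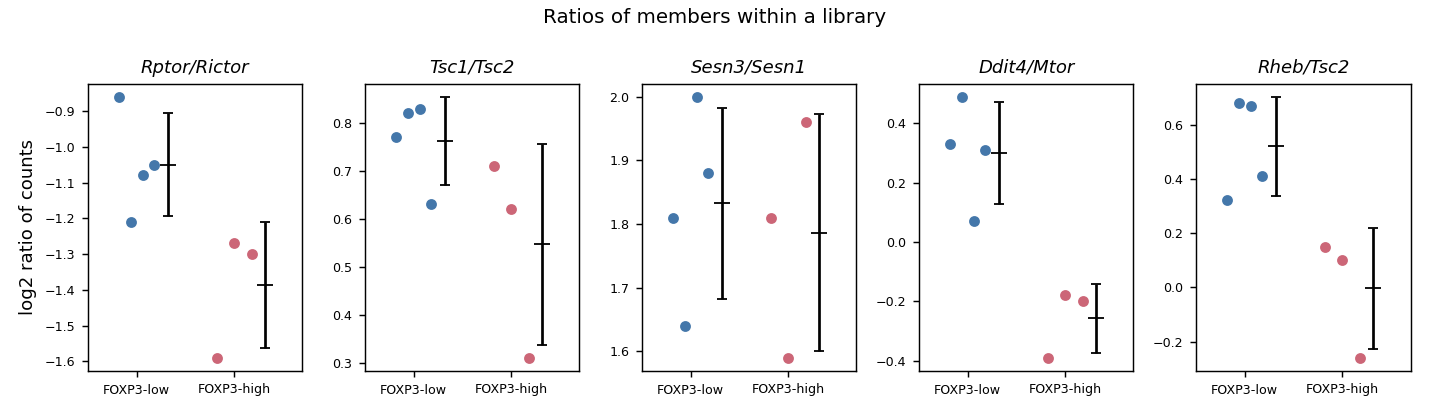
Log2 ratio of the counts of 2 members in each library (blue FOXP3-low, n = 4; red FOXP3-high, n = 3; black, mean and SD), each panel on its own axis. Rptor/Rictor, Ddit4/Mtor and Rheb/Tsc2 are lower in every FOXP3-high library than in any FOXP3-low library, while Tsc1/Tsc2 and Sesn3/Sesn1 overlap.

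The other genes of the pathway were called in both directions with TMM. Of 66 genes in 7 lists, 65 were tested (Ddit4l was not), and 12 were higher, 17 lower and 36 did not pass. Over all tested genes 21.8% were higher and 24.6% lower, so the list's shares lay near the background. Its counts by role, given below, were read against the same background and no difference between roles was tested. The list had a median log2 fold change of 0.00 beside 0.01 over all genes. With T cell identity scaling 1 was higher and 38 lower, where 4.81% of all genes were higher and 50.5% lower (median -0.49, beside -0.47 over all genes).

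Among 9 other subunits and assembly factors of the complexes, none was higher and 2 were lower. Tti2, a chaperone partner for the folding of mTOR-family kinases, fell from 170.2 ± 6.69 CPM in FOXP3-low to a FOXP3-high mean of 139 ± 3.97 CPM (log2 fold change -0.29 ± 0.0502, edgeR adjusted p = 0.0012), although it overlaps the more abundant Mak16 on the opposite strand. Prr5l, an mTORC2-associated protein, rested on 0, 2 and 13 counts in the FOXP3-high libraries against 23 to 44 in FOXP3-low (edgeR adjusted p = 0.0166). Deptor, an inhibitor that binds mTOR directly, was at 8.55 ± 0.828 and 8.20 ± 2.97 CPM and did not pass; it overlaps Gm9920 on the opposite strand.

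Of the 5 tested relatives of the TSC, RHEB and sensor genes, 2 were higher and 2 lower. Bmt2, which encodes the methionine-related sensor SAMTOR, rose from 26.1 ± 1.58 CPM to a mean of 39.3 ± 2.64 CPM (log2 fold change 0.59 ± 0.0809, edgeR adjusted p = 2.61e-04), but scaled to T cell identity genes stood at 0.11 and did not pass (adjusted p = 0.469). Sesn2 is given above. The other 2, named after their values were seen, were Castor2 (log2 fold change 0.35), the paralog of Castor1, and Tbc1d7 (-1.17), a further subunit of the TSC complex, with a mean under 2 CPM in both groups.

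Of 13 Rag GTPase, Ragulator and folliculin genes of the lysosomal branch, 4 were lower and none higher, beside the 24.6% and 21.8% of all genes. Fnip2, a partner of folliculin in activating Rag GTPases, fell from 36.9 ± 1.40 CPM in FOXP3-low to 9.74 ± 2.63 CPM in FOXP3-high (log2 fold change -1.91 ± 0.155, edgeR adjusted p = 9.29e-06), and its relative Fnip1 from 60.0 ± 4.42 CPM to a mean of 47.6 ± 3.10 CPM (log2 fold change -0.34 ± 0.0795, edgeR adjusted p = 0.00665). None of the 6 GATOR1 and KICSTOR genes, which encode the nutrient brake on Rag GTPases, passed in edgeR with TMM, the DESeq2 Wald test or limma-voom, and 0 had an unadjusted p under 0.05 in any of these. With T cell identity scaling, however, 2 of the 6 were called lower in edgeR, where 50.5% of all genes were. The most abundant of them, Depdc5, a GATOR1 subunit, had mean levels of 22.0 ± 1.44 CPM across FOXP3-low libraries against 21.0 ± 0.407 CPM across FOXP3-high libraries (log2 fold change -0.06, edgeR adjusted p = 0.598). Scaled to T cell identity genes, Depdc5 was among those called lower (log2 fold change -0.54, edgeR adjusted p = 0.0015). Of 5 GATOR2 genes, which encode the complex that opposes GATOR1, 2 were lower, Seh1l (log2 fold change -0.35) and Sec13 (-0.33), both of which also serve in nuclear pores; Seh1l overlaps 4930549G23Rik on the opposite strand. These decreases ran alongside the lower macrophage and cell cycle sums, whose part was not tested.

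Upstream, 5 of 13 PI3K, AKT and AMPK genes were higher and 3 lower. Pik3r1, the main regulatory subunit of PI3K, rose from 168 ± 5.75 CPM to a mean of 242 ± 20.4 CPM (log2 fold change 0.53 ± 0.0613, edgeR adjusted p = 9.36e-05), and Pik3cd, the delta catalytic subunit found mainly in leukocytes, from 132 ± 10.98 CPM to a mean of 180 ± 9.45 CPM (log2 fold change 0.44 ± 0.0701, edgeR adjusted p = 6.57e-04). Scaled to T cell identity genes, Pik3r1 stood at 0.03 (adjusted p = 0.727) and Pik3cd at -0.04 (adjusted p = 0.670), and neither passed. Among 14 substrates and outputs 5 were higher and 4 lower. Pdcd4, a translation inhibitor whose protein is marked for breakdown downstream of mTORC1, rose from 300 ± 15.02 CPM to a mean of 577 ± 40.1 CPM (log2 fold change 0.94 ± 0.059, edgeR adjusted p = 1.89e-06), and was the single gene of the wider list still called higher with T cell identity scaling (log2 fold change 0.46, adjusted p = 4.25e-05). Rps6, the ribosomal protein phosphorylated by S6 kinase, fell from 1264 ± 31.3 CPM in FOXP3-low to 1017 ± 15.1 CPM in FOXP3-high (log2 fold change -0.31 ± 0.0382, edgeR adjusted p = 1.24e-04).

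**Figure D5:**
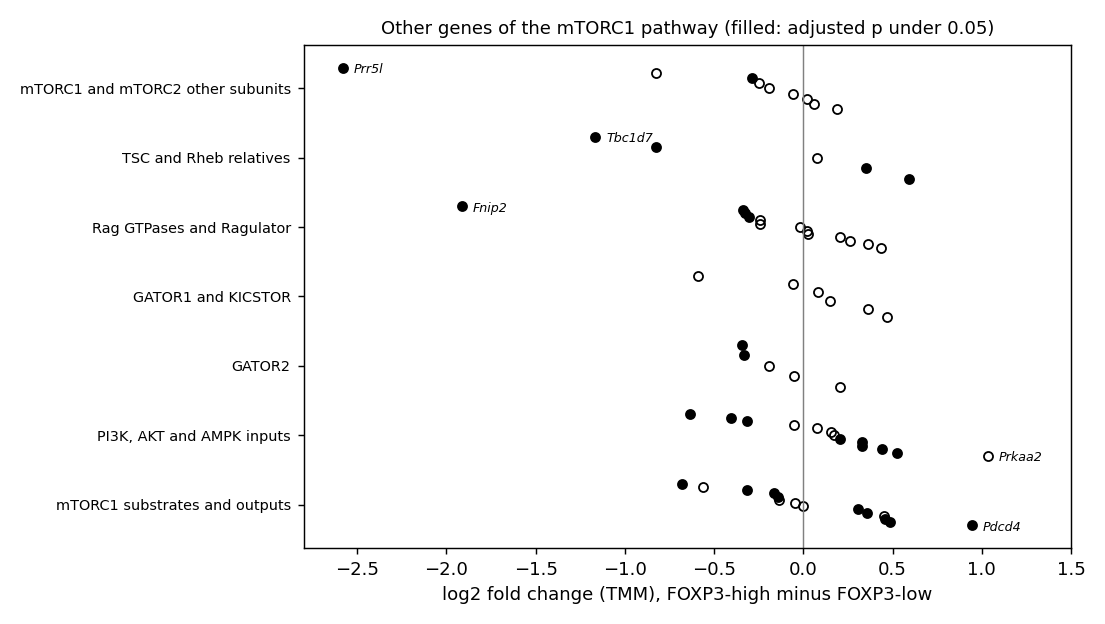
Log2 fold change with TMM of the 65 tested genes of the wider pathway, 1 point per gene, by role; filled points have an edgeR adjusted p under 0.05 and the largest differences carry names. Filled points lie on both sides of 0 for TSC and Rheb relatives, inputs and substrates, and on the lower side alone for other subunits, Rag and Ragulator genes and GATOR2.

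The genes whose pattern over the 7 libraries was most like that of the members at each end were taken from 9695 tested genes whose mean reached 5 CPM, by Pearson's r of log2 CPM. Nearest to Sesn1 were Cd6, a T cell surface receptor and one of the T cell identity genes (r = 0.9998), Cytip, a regulator of lymphocyte adhesion (0.9986), and Rarg, a retinoic acid receptor (0.9982). Nearest to Ddit4 were Rbm10, a splicing regulator (r = 0.9969), Agtpbp1 (0.9928) and Med7, a Mediator subunit (0.9922). The 7 points share the group difference and the scaling, and 1120 genes had an r over 0.95 with Sesn1 and 256 with Ddit4, so these names are a description.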

How the data were processed

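RNA of 7 sorted samples was sequenced as stranded mRNA libraries, per the labels' protocols. The authors deposited whole-number counts per gene without normalization, with a gene length and mouse coordinates, given here as GRCm39. The submitters' processing notes name featureCounts, STAR 2.5.3a and fastp 0.23.4, beside the builds GRCm39 and GRCh38. Strand setting and the handling of shared reads and duplicates were not found in the labels. Overlapping genes with at least 10% as many counts are given for the genes named above. Other counted genes of the wider list had such overlaps too, which are not listed.

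Groups and replicate numbers came from sample titles. The quasi-likelihood test of edgeR 4.0.16 (R 4.3.3), with filterByExpr (minimum count 10, total 15), TMM and no block, compared FOXP3-high with FOXP3-low over 15838 genes, at a Benjamini-Hochberg adjusted p of 0.05, and was checked on simulated counts. Of 15454 genes in that check, 66 were given a log2 change of 0.5, 67 of 1 and 61 of 2. The test recovered 31.8%, 50.7% and 80.3% of these, in that order, with 6 false calls. In the data 46.5% of tested genes were called, and recovery with so large a share was not tested. A gene that did not pass may still differ. A standard error is the size of the log2 fold change over the square root of F. Ratios had 0.5 added to each count. Libraries within a group differed beyond counting noise (chi-square per gene 3.98 to 12.2). The alternatives were other size factors and filters, scaling to 18 T cell identity genes, DESeq2 1.42.0, limma-voom (limma 3.58.1), leaving out libraries and a replicate block.

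The members, the 13 gene lists and the alternatives were chosen with earlier results of these data known. Named were the 10 members, up to 2 genes per pathway list with the smallest adjusted p (or the most abundant where none passed), and the 3 genes nearest in pattern to the members at each end. Deptor, Ddit4l, Castor2, Tbc1d7, Pkd1 and Il2ra were named outside this rule, after their values were seen. The wider list was shortened by 3 genes, which are not reported here.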

Additional observations from a re-analysis of the deposited data

How the results depend on the processing

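With 10 members and 17 alternatives, Sesn1, Sesn3 and Ddit4 kept their direction and their call in all 17. Scaling to T cell identity genes changed the counts: 2 members higher and 3 lower, and 1 gene of the wider list higher and 38 lower; it turned the log2 fold change of Mtor to -0.49, Rheb to -0.44, Rptor to -0.18, Tsc1 to -0.13 and Castor1 to -0.11. That scaling moves all genes down together. Mtor, near 0, also changed sign with DESeq2 size factors (-0.000857), without a filter (-0.0422), with the DESeq2 Wald test (-0.0025) and with limma-voom (-0.00381). Rptor was not called without a filter (0.26, adjusted p = 0.0674) or without both libraries numbered 3, each leaving 5 members higher; the cause was not tested.

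Leaving out each library in turn left 6 members higher and 1 lower every time, with 9 to 13 higher and 12 to 18 lower in the wider list, Mtor from -0.0268 to 0.0394, Rheb from -0.00979 to 0.13 and the Sesn3/Sesn1 log2 ratio difference from -0.14 to 0.05. The other 4 ratio differences kept their sign without each library and with 5 added to counts. Same-numbered libraries deviated together with r = -0.23, 0.0948 and 0.659, and differently numbered ones with r from -0.678 to 0.483. The highest r was that of the libraries numbered 3, and whether these share a source was not tested. The labels do not say that a number marks a shared mouse, so the numbers were not taken as pairs. With the replicate number as a block 6 members were higher and 1 lower, and 10 and 16 genes of the wider list. Castor1 had too few counts for the filter of 50 counts in 3 libraries and gave no value there.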
